A study of Mus musculus with 4 samples.

Results

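Inhibitory receptors are surface proteins that dampen the activation of lymphocytes, and T cells raise many of them once the T-cell receptor has been engaged. Many carry short tyrosine motifs in their cytoplasmic tails that recruit phosphatases such as SHP-1 and SHP-2, and most answer to ligands that neighbouring cells carry. Because T-cell receptor signals run in part through the kinases MEK1 and MEK2, which activate ERK, the RNA of these genes was compared between cultures of WT mice and of mice in which both kinase genes were targeted in T cells. The 10 genes described here, chosen by name, were Pdcd1 (PD-1), Lag3, Havcr2 (TIM-3), Tigit, Btla, Cd160, Cd200, Cd200r1, Cd96 and Lair1, out of 54752 genes in the count tables. Cd200 is the ligand of Cd200r1 and is read here with the receptors because activated T cells carry it.

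The study set Mek1/2-tKO mice, which carry Cd4-Cre with Map2k1 (MEK1) fl/fl and Map2k2 (MEK2) fl/fl, beside WT littermates on the C57BL/6 background. Cd4-Cre is driven by a Cd4 promoter that is active in developing T cells of both the CD4 and the CD8 lineage, so that other cell types are expected to keep both kinases. Naïve CD4+ T cells of the spleen were stimulated with plate-bound anti-CD3 and with anti-CD28, with IL-6 and with IL-4, IFN-γ, TGF-β and IL-2 blocked by antibodies, conditions that favour follicular helper T (Tfh) cells, and viable cells were sorted again on day 3. Each genotype had 2 libraries, and the age of the mice behind these cultures is not given in the sources used here. The WT libraries held 18858860 and 18807774 counts and the Mek1/2-tKO libraries 16330802 and 18931090. All 10 genes had enough counts to enter the test, among 14330 genes that did. Nothing in the labels says that the libraries of a genotype came from separate mice, so the p-values measure the spread between these libraries, which may be technical. With 2 libraries a side, the smallest two-sided p of an exact permutation test is 0.333, and the adjusted p-values therefore rest on a variance model fitted over all genes.

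Levels are given as CPM, counts scaled to a common library size by edgeR's TMM method, in the order WT 1, WT 2, Mek1/2-tKO 1 and Mek1/2-tKO 2. Levels of different genes are compared only as RPKM, which also divides by gene length. A gene was called when its adjusted p in edgeR's quasi-likelihood test was under 0.05 and its fold change at least 1.5. The targeted genes were read first. Map2k1 had 181.7, 187.3, 98.0 and 105.1 CPM and was lower in both Mek1/2-tKO libraries, at a log2 change of -0.86 (standard error 0.08, edgeR adjusted p = 1.29e-06). Map2k2 had 154.5, 164.7, 171.8 and 182.4 CPM, and its log2 fold change of 0.15 did not pass (standard error 0.08, edgeR adjusted p = 0.126). Counts over whole genes do not show whether the floxed exons were present, so Map2k2 neither bears out its label nor goes against it.

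The labelled cell type was checked against its markers, and the Mek1/2-tKO libraries departed from it. Cd4, the co-receptor that defines the sorted cells, had 297 and 289.5 CPM in WT but 18.8 and 25.1 CPM in Mek1/2-tKO, a 13.3-fold lower level (log2 fold change -3.73, standard error 0.12, edgeR adjusted p = 2.43e-11). In bulk RNA, fewer cells of a type and less RNA per cell cannot be told apart. Cd8a, the co-receptor of cytotoxic T cells, had 35.4 and 31.0 CPM in WT and 147 and 130 CPM in Mek1/2-tKO. The summed CPM of the 11 T-cell identity genes was 2761, 2785, 2764 and 2589, but Thy1 alone was higher and 5 genes (Cd3e, Cd247, Trac, Zap70 and Cd28) were lower, with a list median of -0.54 on the log2 scale. Without Thy1 the sums were 2200.0, 2211, 1743 and 1591 CPM. Scaled to the T-cell receptor complex genes, of which it is one, Cd247 (-0.58) was short of the fold threshold, and with library size alone Lck was lower too (-0.63). The lists of other cell types rose in both Mek1/2-tKO libraries. The 12 B-lineage genes summed to 1400, 1370, 6749 and 6667 CPM, with 11 higher and 1 lower, and Ighm had the highest RPKM in both genotypes. The lower one, Fcer2a, sat at the fold threshold and was short of it with DESeq2's size factors (-0.58), with at least 10 counts in every library (-0.57) and when scaled to Cd3d, Cd3e, Cd3g and Cd247 (-0.38). The 8 NK-cell genes summed to 94.1, 98.9, 680.5 and 617.3 CPM, all 8 were higher, and Nkg7 had the highest RPKM in both genotypes. The 5 gamma-delta T-cell genes summed to 6.98, 4.36, 184.2 and 165.0 CPM, all 5 were higher, and Tcrg-C2 had the highest RPKM in both genotypes, 2.28 in WT and 57.5 in Mek1/2-tKO. The 11 myeloid genes summed to 6.47, 6.28, 36.2 and 30.3 CPM, and the 6 that were tested were higher. One of them, Cd68, did not pass with library size alone, DESeq2 or no filter (adjusted p = 0.0748, 0.178 and 0.0567). Cd68 had the highest RPKM of the list in WT (2.24) and Lyz2 in Mek1/2-tKO (6.25), 3 of the 11 had no count in each WT library, and the macrophage gene Adgre1 had none in either WT library. The 5 mast cell and basophil genes summed to 0.616, 0.778, 11.6 and 12.7 CPM, and Mcpt8 had the highest RPKM in Mek1/2-tKO (3.28). Of these, 4 were tested and all 4 were higher, and Ms4a2 had no count in either WT library. Among the 3 regulatory T-cell genes, Il2ra was lower (log2 fold change -0.91), while Foxp3 (-0.85) and Ikzf2 (-0.12) did not pass. Foxp3 passed when no filter on low counts was used (edgeR adjusted p = 0.0443). Of the exon bases of Foxp3, 18.64% are also exonic in Flicr on the same strand and 18.7% in genes on the opposite strand. Of those of the NK-cell gene Klrb1c, 13.95% are also exonic in Gm44511 on the same strand. The counts of Foxp3 and Klrb1c are therefore uncertain. The part of the marker lists in the results that follow was not tested.

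**Figure D1:**
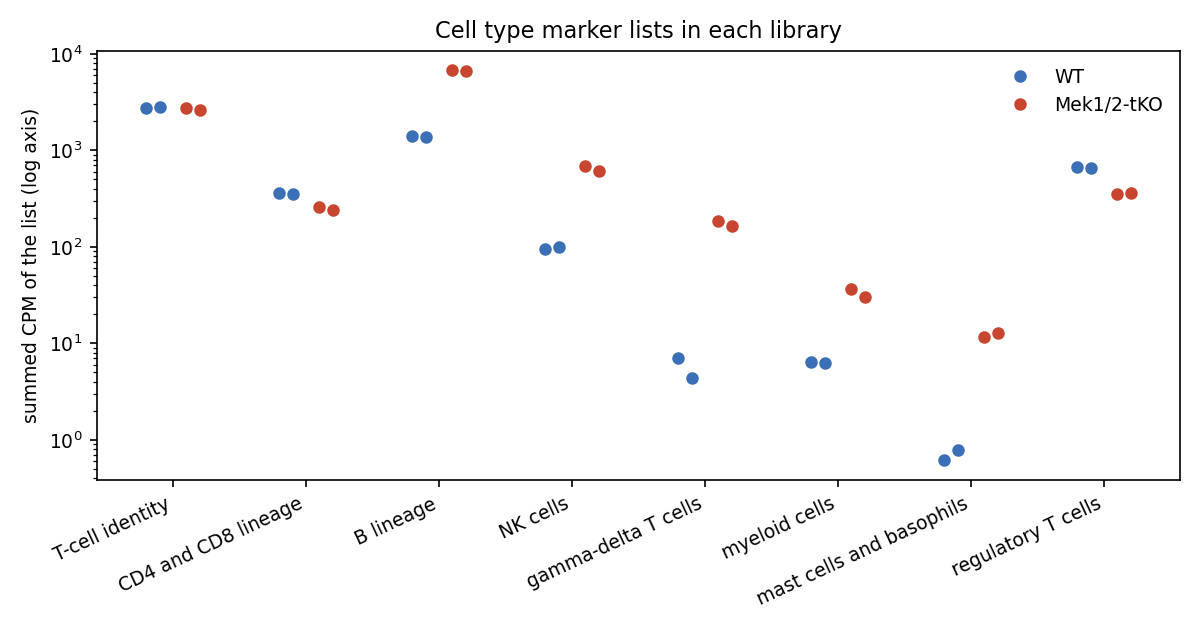
Summed CPM (log axis) of 8 cell type marker lists in each library, with WT in blue and Mek1/2-tKO in red. The T-cell identity sums lie between 2589 and 2785 CPM, with Thy1 higher and 5 other genes lower in Mek1/2-tKO, while the Mek1/2-tKO sums of the B-lineage, NK-cell, gamma-delta T-cell, myeloid and mast cell or basophil lists lie above both WT libraries.

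The inhibitory receptor genes did not move as a block. In the Mek1/2-tKO libraries 3 of the 10 were higher (Cd160, Havcr2 and Cd96), 3 were lower (Lag3, Cd200 and Btla) and 4 did not pass (Pdcd1, Tigit, Cd200r1 and Lair1). Over all genes tested, 19.3% were called higher and 16.4% lower, and 6 of the 10 genes stand beside 35.8% of all genes called in either direction. Nothing particular to the set is read from these counts. The median log2 fold change of the 10 genes was 0.16, beside 0.02 over all genes tested. The CPM of the genotypes did not overlap for 9 of the 10, the exception being Lair1, and did not overlap for 78.3% of all genes tested. The called changes ran from a 7.51-fold rise of Cd160 to a 4.59-fold fall of Lag3. When libraries were scaled to the T-cell receptor complex genes Cd3d, Cd3e, Cd3g and Cd247 instead, the median of all genes moved by 0.205 on the log2 scale. Of the exon bases of Cd247, 56.4% are also exonic in Pou2f1 on the opposite strand, so its count is uncertain. Relative to these genes, 4 members were higher, with Cd200r1 added, and 2 were lower, with Btla lost.

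**Figure D2:**
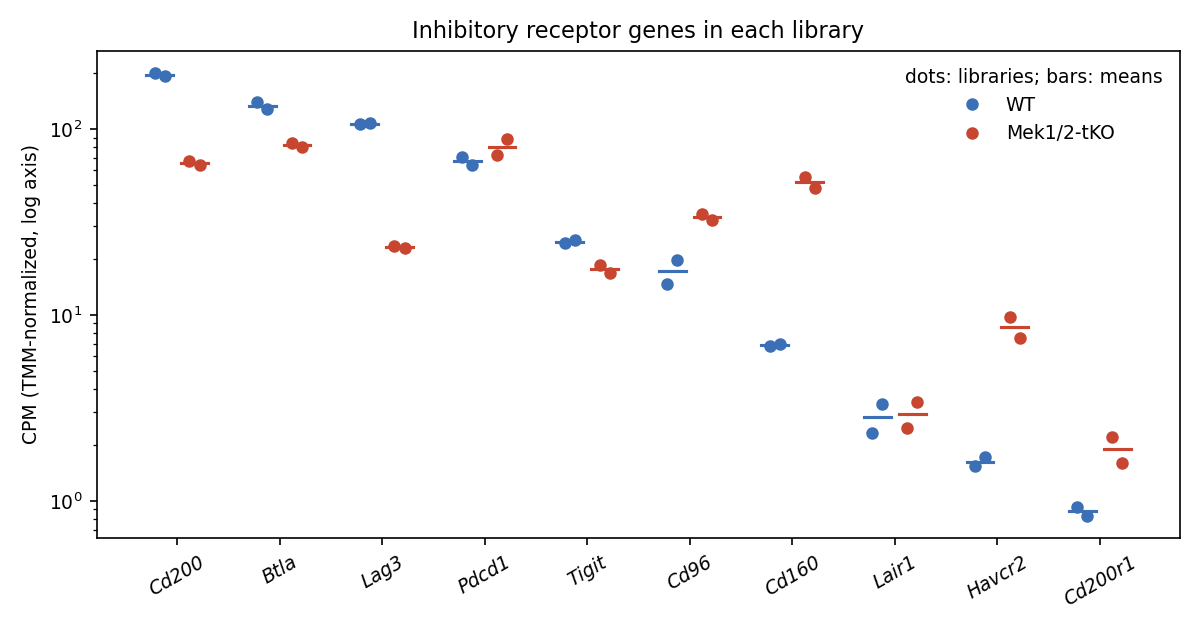
CPM (TMM-normalized, log axis) of the 10 genes in the 2 WT (blue) and 2 Mek1/2-tKO (red) libraries, with a dot for each library and a bar for each mean, ordered by the WT level. Cd200, Btla and Lag3 lie lower in both Mek1/2-tKO libraries, Cd96, Cd160 and Havcr2 lie higher, and the libraries of Lair1 interleave.

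**Figure D3:**
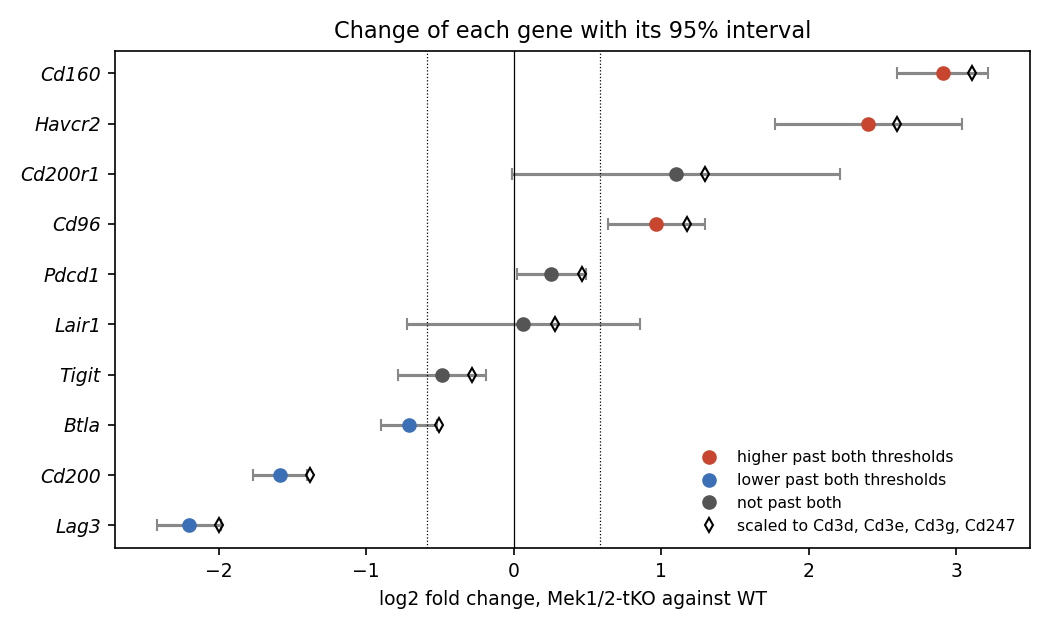
Log2 fold change of Mek1/2-tKO against WT for the 10 genes, with bars for the 95% interval, dotted lines at the fold change of 1.5 and open diamonds for the values scaled to Cd3d, Cd3e, Cd3g and Cd247. The intervals of Cd160, Havcr2 and Cd96 lie above the upper dotted line, those of Lag3 and Cd200 lie below the lower one, and each diamond lies to the right of its point.

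Lag3 showed the largest fall of the set. The protein is a structural relative of CD4 that binds MHC class II, and its gene (ENSMUSG00000030124.2, chr6:124904361-124911705, minus strand, GRCm38) lies beside Cd4. Lag3 had 106.2, 107.7, 23.64 and 22.95 CPM. The replicates of each genotype lay close together, and both Mek1/2-tKO libraries were far below both WT libraries. The log2 fold change was -2.20 (standard error 0.10, 95% interval -2.42 to -1.98, edgeR adjusted p = 1.01e-09), and leaving out each library in turn kept it between -2.22 and -2.18. Within 50000 bases of Lag3 the annotation listed 9 genes, and 5 others were tested. Cd4 and Ptms (-0.60) were lower, as were 16.4% of all genes tested. Gpr162 (-1.27), Mlf2 (-0.10) and Cops7a (-0.01) did not pass. Beside the log2 fold change of -3.73 of Cd4, the ratio of Lag3 to Cd4 in RPKM was 0.684 and 0.711 in WT and 2.405 and 1.746 in Mek1/2-tKO. Lag3 fell more than each of the T-cell identity genes, of which Cd28 (-1.99) fell most. Scaled to the T-cell receptor complex genes, the log2 fold change of Lag3 was -1.995 (edgeR adjusted p = 3.76e-14).

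Btla and Cd160 bind the same ligand, HVEM, which Tnfrsf14 encodes, and their genes were called in opposite directions. Btla (ENSMUSG00000052013.15, chr16:45224315-45257670, plus strand), an immunoglobulin-family receptor of T and B cells, had 140.3, 127.9, 84.2 and 79.9 CPM. Both Mek1/2-tKO libraries lay below both WT libraries, at a log2 fold change of -0.71 (standard error 0.09, 95% interval -0.90 to -0.52, edgeR adjusted p = 1.67e-05). Scaled to the T-cell receptor complex genes, Btla fell by 0.51 on the log2 scale, short of the fold threshold (edgeR adjusted p = 6.37e-04). Cd160 (ENSMUSG00000038304.14, chr3:96798763-96829351, minus strand), a receptor known from NK cells, CD8+ T cells and other cytotoxic lymphocytes, had 6.774, 7.002, 55.6 and 48.0 CPM. This was the largest rise of the set, at a log2 fold change of 2.91 (standard error 0.14, 95% interval 2.60 to 3.22, edgeR adjusted p = 2.04e-09), beside the rise of all 8 NK-cell markers. Of the exon bases of Cd160, 2.57% are also exonic in Pdzk1 on the opposite strand, and reads there cannot be assigned to one gene unless the counting used the strand, which is not stated. In RPKM, Cd160 stood at 0.0621 and 0.0704 of Btla in WT and at 0.849 and 0.772 of it in Mek1/2-tKO. The ratio of Cd160 to the NK-cell gene Ncr1 was 5.13 and 4.92 in WT and 2.82 and 2.84 in Mek1/2-tKO, at a log2 fold change of 3.73 for Ncr1. The other NK-cell markers lay on both sides of Cd160. Klre1 (3.71), Klra8 (4.74), Klrk1 (3.23) and Tyrobp (3.54) rose more, while Nkg7 (2.72), Klrb1c (2.72) and Gzma (2.27) rose less. The ligand gene Tnfrsf14 had 15.9, 16.1, 12.4 and 13.0 CPM and did not pass (log2 fold change -0.33, edgeR adjusted p = 0.0958). Of the genes of the cytokines that also bind HVEM, Lta was higher (1.85) and Tnfsf14 did not pass (0.28).

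The promoters of this pair were read because their genes moved apart. RefSeq windows of 250 bases before to 50 after each start (GRCm38.p6) were given for 8 of the 10 genes, with separate starts for Cd160, and were searched on both strands for AP-1 (TGANTCA), ETS (CCGGAA), IRF (GAAA, 2 bases of any kind and GAAA), T-box (TCACACC) and RUNX (TGTGGT) letters. A T-box match was in the inner Cd160 promoter only among these genes and in 3.98% of all 32851 promoters searched. The search left out a chromosome that holds none of the 10 genes. The percentages count windows, while the 8 genes are counted with a match in any of their windows. RUNX letters were in promoters of 5 of the 8 genes (Btla, Cd160, Cd96, Havcr2 and Tigit) and in 16.8% of the promoters searched. ETS and IRF letters were in none of the 8 and in 14.9 and 3.44% of the promoters searched. In each sequence, written 5′ to 3′ along the gene, capitals mark the matches, which do not overlap each other. The inner Cd160 window (chr3:96814472-96814771, minus strand) holds the T-box letters on the reverse strand and, after them, RUNX letters on the forward strand. The outer Cd160 window (chr3:96829302-96829601, minus strand) and the Btla window (chr16:45224087-45224386, plus strand) hold RUNX letters on the reverse strand.
Cd160 inner: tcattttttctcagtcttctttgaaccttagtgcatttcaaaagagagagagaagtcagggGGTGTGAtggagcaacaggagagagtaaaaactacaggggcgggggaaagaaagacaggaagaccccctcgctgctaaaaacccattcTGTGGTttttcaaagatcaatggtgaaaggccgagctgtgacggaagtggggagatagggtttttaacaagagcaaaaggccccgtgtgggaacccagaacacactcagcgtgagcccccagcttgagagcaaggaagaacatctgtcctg
Cd160 outer: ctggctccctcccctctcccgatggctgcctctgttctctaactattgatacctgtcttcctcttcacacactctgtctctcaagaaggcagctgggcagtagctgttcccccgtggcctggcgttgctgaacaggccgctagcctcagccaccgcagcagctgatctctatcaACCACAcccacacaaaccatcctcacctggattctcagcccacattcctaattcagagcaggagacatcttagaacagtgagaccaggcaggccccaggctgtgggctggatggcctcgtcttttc
Btla: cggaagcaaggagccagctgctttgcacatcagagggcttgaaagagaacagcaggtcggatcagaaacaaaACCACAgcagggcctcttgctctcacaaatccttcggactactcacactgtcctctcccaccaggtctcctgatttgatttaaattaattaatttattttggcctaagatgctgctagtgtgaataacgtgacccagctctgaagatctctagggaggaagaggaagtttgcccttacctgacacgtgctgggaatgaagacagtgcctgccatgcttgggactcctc
A match describes the letters and says nothing of binding in these cells.

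Tigit and Cd96 form the other ligand-sharing pair, since both bind CD155 (the product of Pvr) in competition with the activating receptor CD226. Tigit (ENSMUSG00000071552.5, chr16:43648867-43664146, minus strand) had 24.4, 25.3, 18.6 and 16.9 CPM. Both Mek1/2-tKO libraries lay below WT, but the fold change of 1.40 was short of the threshold (log2 fold change -0.49, standard error 0.14, edgeR adjusted p = 0.00919), and the adjusted p was 0.167 when scaled to the T-cell receptor complex genes. Cd96 (ENSMUSG00000022657.9, chr16:46035657-46120251, minus strand) had 14.7, 19.8, 34.9 and 32.6 CPM, a 1.96-fold rise in which both Mek1/2-tKO libraries lay above WT. The log2 fold change of Cd96 was 0.97 (standard error 0.15, 95% interval 0.64 to 1.30, edgeR adjusted p = 1.21e-04). In RPKM, Cd96 stood at 0.253 and 0.330 of Tigit in WT and at 0.789 and 0.814 of it in Mek1/2-tKO. The activating partner Cd226 had 31.5, 35.1, 37.7 and 32.3 CPM, with overlapping genotypes (log2 fold change 0.07, edgeR adjusted p = 0.666). Their ligand gene Pvr fell 3.12-fold (-1.64), from 38.18 and 43.15 CPM to 12.34 and 13.69 CPM. The nectin genes Nectin1 (1.14), Nectin2 (-0.35) and Nectin3 (0.45) had at most 2.26 CPM in any library and did not pass. Nectin1 passed when scaled to the T-cell receptor complex genes (1.34, edgeR adjusted p = 0.0324) and with at least 10 counts in every library (1.16, edgeR adjusted p = 0.0219).

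Havcr2 encodes TIM-3, a receptor of terminally differentiated T cells that is also found on NK and myeloid cells. Havcr2 (ENSMUSG00000020399.14, chr11:46454935-46481255, plus strand) had 1.54, 1.71, 9.75 and 7.56 CPM, from 30, 33, 151 and 142 counts. The level was low in WT and 5.30-fold higher in Mek1/2-tKO, at a log2 fold change of 2.40 (standard error 0.29, 95% interval 1.77 to 3.04, edgeR adjusted p = 1.30e-05). Relative to the NK-cell receptor gene Klrk1, Havcr2 stood at 0.486 and 0.512 in WT and at 0.310 and 0.254 in Mek1/2-tKO, in RPKM. Among the NK-cell markers, Gzma (2.27) rose less than Havcr2 and the others rose more. Among the tested myeloid markers, Cd14 (1.86) and Cd68 (0.78) rose less, while Lyz2 (3.97), Itgax (2.655), Flt3 (2.52) and Adgre1 rose more. Among the TIM-3 ligands, the galectin Lgals9 (0.09) and the nuclear protein Hmgb1 (0.10) did not pass, and Ceacam1, an adhesion molecule, was higher (1.85), at 1.75, 1.76, 5.94 and 6.71 CPM. Of the relatives in the TIM family, Havcr1 was higher at a low level (1.76, from 0.924 and 0.882 to 2.52 and 3.62 CPM), Timd2 did not pass (-0.34), and Timd4 had no count. Among the 8 genes with a promoter, AP-1 letters were in that of Havcr2 alone (chr11:46454681-46454980, plus strand) and in 7.81% of the promoters searched. It is shown because AP-1 factors are classical targets of ERK signalling, with the AP-1 match and then the RUNX match in capitals.
Havcr2: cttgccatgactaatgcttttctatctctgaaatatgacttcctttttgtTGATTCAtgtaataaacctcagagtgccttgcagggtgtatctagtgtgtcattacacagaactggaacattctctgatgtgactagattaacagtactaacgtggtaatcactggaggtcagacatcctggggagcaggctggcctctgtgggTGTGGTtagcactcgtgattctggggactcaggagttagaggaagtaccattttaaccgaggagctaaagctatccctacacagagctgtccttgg

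Cd200, a surface glycoprotein that restrains myeloid cells through its receptor, had the highest WT level of the set per length. Cd200 (ENSMUSG00000022661.14, chr16:45382135-45409053, minus strand) had 200.9, 192.6, 67.2 and 64.2 CPM. The genotypes were far apart against the spread of their replicates, with a 2.99-fold fall (log2 fold change -1.58, standard error 0.08, 95% interval -1.76 to -1.40, edgeR adjusted p = 4.26e-09). Its receptor Cd200r1 (ENSMUSG00000022667.18, chr16:44765736-44794978, plus strand) was near the lower limit of the test, with 18, 16, 34 and 30 counts, or 0.924, 0.830, 2.20 and 1.60 CPM. Both Mek1/2-tKO values lay above WT, but the log2 fold change of 1.10 did not pass (standard error 0.52, 95% interval -0.01 to 2.21, edgeR adjusted p = 0.087). It passed when only genes with at least 10 counts in every library were tested (edgeR adjusted p = 0.0325). Its relatives Cd200r2, Cd200r3 and Cd200r4 each stayed under 1 CPM in every library, and whether reads are shared among these genes was not tested.

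Pdcd1 and Lair1 gave no call. Pdcd1 (ENSMUSG00000026285.7, chr1:94038305-94052553, minus strand), which encodes the PD-1 receptor that Tfh cells carry at high levels, had 71.0, 64.1, 73.0 and 88.1 CPM. Its Mek1/2-tKO libraries lay above WT by 1.20-fold, with a 95% interval of the log2 fold change from 0.02 to 0.49 (edgeR adjusted p = 0.0612), which stays under the fold threshold throughout. Leaving out single libraries gave values from 0.10 to 0.38 on the log2 scale. Of its ligands, Cd274 (PD-L1) had 65.0, 67.3, 74.5 and 79.8 CPM and did not pass (0.22), while Pdcd1lg2 (PD-L2) was 1.75-fold higher (0.81, edgeR adjusted p = 0.00129). The Pdcd1lg2 values in Mek1/2-tKO, 47.9 and 31.3 CPM, lay further apart than those in WT, 21.35 and 23.76 CPM. Lair1 (ENSMUSG00000055541.17, chr7:4003402-4063204, minus strand), a collagen receptor of many leukocytes, had 2.309, 3.320, 2.455 and 3.408 CPM. Its genotypes overlapped, and the 95% interval of its log2 fold change, -0.73 to 0.86, leaves changes in either direction possible (value 0.07, edgeR adjusted p = 0.894).

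The make-up of the set changed with these values. In WT the order of length-corrected levels was Cd200 (59.2 RPKM), Lag3 (50.7), Btla (39.5), Pdcd1 (35.0), Tigit (27.0), Cd96 (7.90), Cd160 (2.61), Havcr2 (0.597), Lair1 (0.377) and Cd200r1 (0.262), and no neighbours in this order had overlapping replicates. In Mek1/2-tKO the order of RPKM was Pdcd1 (41.7), Btla (24.2), Cd200 (19.8), Cd160 (19.6), Tigit (19.3), Cd96 (15.5), Lag3 (11.1), Havcr2 (3.18), Cd200r1 (0.567) and Lair1 (0.392), where Cd200, Cd160 and Tigit could not be ranked because the replicates of neighbours overlapped. The 10 genes summed to 225.9 and 220.4 RPKM in WT and to 155.9 and 154.6 RPKM in Mek1/2-tKO. Pdcd1 made up 16.3 and 15.1% of that sum in WT and 24.3 and 29.5% in Mek1/2-tKO, although its own level did not pass. Cd160 went from 1.14 and 1.20% of the sum to 13.5 and 11.8%, and Lag3 from 22.3 and 23.2% to 7.19 and 7.04%. The share of Tigit lay at 11.7, 12.5, 13.0 and 11.9%.

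**Figure D4:**
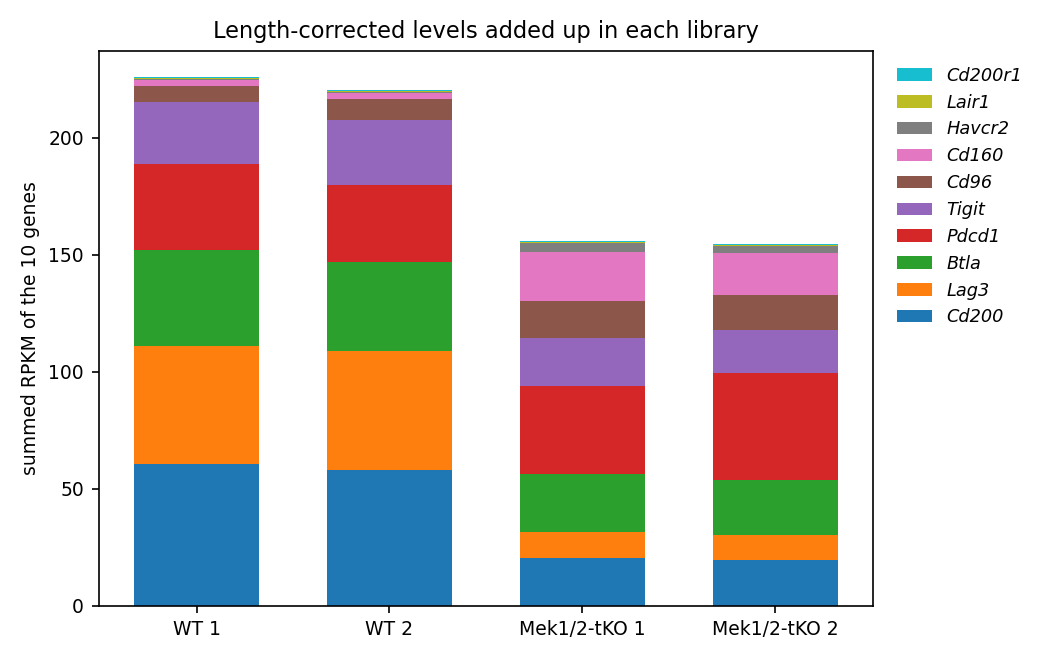
Summed RPKM of the 10 genes in each library, with a coloured segment for each gene. The bars reach 225.9 and 220.4 RPKM in WT and 155.9 and 154.6 RPKM in Mek1/2-tKO, where the segments of Cd200 and Lag3 are shorter and those of Cd160 and Cd96 taller.

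Of the set, 5 genes (Tigit, Cd200r1, Btla, Cd200 and Cd96) lie in 1 interval of chromosome 16, from base 43648867 to base 46120251, which holds 56 annotated genes. They included falls (Btla and Cd200) and a rise (Cd96). Of the 17 other genes tested there, none was higher and 4 were lower (Ccdc191, Atp6v1a, Usf3 and Plcxd2). Over all genes tested, 19.3% were higher and 16.4% lower, and nothing particular to the interval is read from these counts. The median log2 fold change of the 17 genes was -0.14. Among genes averaging at least 3 log2 CPM, those whose profile over the 4 libraries lay nearest to that of Cd160 were Nkg7, Igkv8-21 and Crtam, at distances of 0.0824, 0.104 and 0.112 between centred log2(CPM + 1) values. Nkg7 is a granule protein of cytotoxic lymphocytes and Igkv8-21 an immunoglobulin light-chain segment. Nearest to Cd200 were Abhd18, Ero1l and Ciart, at 0.0365, 0.0428 and 0.0466. Over 4 libraries in 2 genotypes such nearness mainly describes a genotype difference of similar size.

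Other genes of these pathways were taken from lists of ligands, signalling proteins and regulators. Their counts stand beside 19.3% of all genes tested called higher and 16.4% called lower. Of the 15 ligand genes, 14 were tested, 6 were higher and 1, Pvr, was lower, with a median log2 fold change of 0.63. The MHC class II genes H2-Aa (3.07), H2-Ab1 (2.66) and H2-Eb1 (2.98), whose products bind LAG-3, rose by 6.31 to 8.41-fold, beside the rise of the B-lineage list, whose part in it was not tested. H2-Eb1, the ligand gene with the highest RPKM in both genotypes, had 267.1, 282.3, 2213 and 2118 CPM. Lgals3, a galectin that binds LAG-3, rose by a log2 fold change of 4.25, from 4.311 and 5.135 CPM to 93.79 and 85.79 CPM, and Fgl1 had no count in any library. Of the 10 signalling genes, the adaptor Dok1 was higher (0.81), while the phosphatase SHP-2 gene Ptpn11 (-0.85), the TIM-3 partner Bag6 (-0.74) and the kinase Fyn (-0.71) were lower. Scaled to the T-cell receptor complex genes, Bag6 (-0.53) and Fyn (-0.51) were short of the fold threshold. Ptpn6, which encodes SHP-1, was 1.22-fold higher in mean CPM and did not pass (0.28), nor did Inpp5d, Csk, Dok2, Rasa1 and Grb2. The median of these 10 genes was -0.04.

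Of 16 listed transcription factors known to act in activated or exhausted T cells, 15 were tested, 7 were lower and 2 higher. Over all genes tested, 16.4% were lower and 19.3% higher, and the list was chosen with earlier results of these data known. The median of the tested factors was -0.44 on the log2 scale. The NR4A factors Nr4a1 (-1.74), Nr4a2 (-0.69) and Nr4a3 (-1.48), which follow T-cell receptor signals, fell with Nfatc2 (-1.72), Tox (-1.98), Irf4 (-1.51) and Fos (-0.89). Scaled to the T-cell receptor complex genes, Nr4a2 (-0.47) was short of the fold threshold, Fos (-0.69, edgeR adjusted p = 0.0608) did not pass, and Prdm1 was higher (0.88, edgeR adjusted p = 0.0266). Fos did not pass with DESeq2 either (adjusted p = 0.0754). Tox, a factor of exhausted T cells, had 10.21, 9.388, 2.455 and 2.503 CPM. Irf4, a factor induced by T-cell receptor signals, had 577.7, 549.8, 186.4 and 208.8 CPM. Eomes, a T-box factor of cytotoxic lymphocytes, rose 3.31-fold (1.73), from 21.81 and 16.65 CPM to 65.63 and 61.72 CPM, and the AP-1 subunit Jun rose 3.27-fold (1.71). Nfatc1 (-0.38), Tbx21 (-0.23) and Foxo1 (-0.44) were lower at an edgeR adjusted p under 0.05 but short of the fold threshold. Prdm1, Maf and Batf did not pass, and Tox2 was not tested, with at most 0.205 CPM.

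Inhibitory receptors outside the set also moved in both directions. Of 8 of T and NK cells, 4 were higher and 3 lower, with a median of 0.32. Over all genes tested, 19.3% were higher and 16.4% lower. Klrg1 (4.27), Klrc1 (3.67), Cd244a (1.43) and Lilrb4a (1.27) rose, the first 3 being receptors of NK and cytotoxic cells. The value of Lilrb4a is uncertain, since 35.3% of its exon bases are also exonic in Gm49339 on the same strand. Klrc1, which encodes NKG2A, had 3.08, 3.89, 51.2 and 38.0 CPM. Ctla4 (-2.97), Cd5 (-1.55) and Vsir (-0.62), which T cells carry, fell, and Cd101 did not pass. Ctla4, a receptor that competes with CD28 for its ligands, had 164.9, 156.4, 22.7 and 18.4 CPM. Scaled to the T-cell receptor complex genes, Vsir (-0.42) was short of the fold threshold. All 6 inhibitory receptors of B and myeloid cells were higher, with a median of 2.77, namely Cd22 (1.70), Cd72 (2.62), Fcgr2b (3.28), Siglecg (2.92), Pirb (3.52) and Pecam1 (1.46). Of the exon bases of Cd72, 41.6% are also exonic in Tesk1 on the opposite strand, so its value is uncertain as well. Their rise went beside that of the B-lineage and myeloid marker lists, and the part of those lists in it was not tested.

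**Figure D5:**
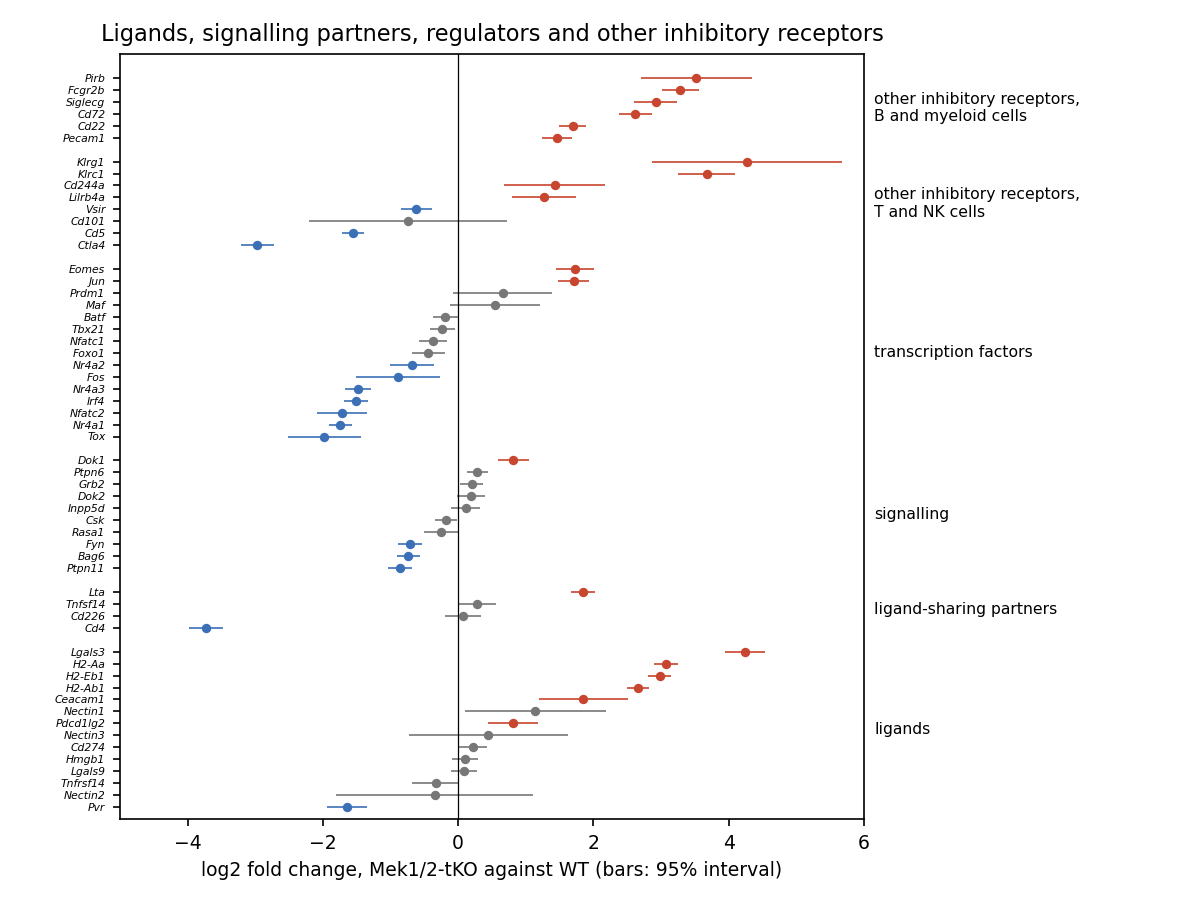
Log2 fold change of Mek1/2-tKO against WT with its 95% interval for the tested genes of 6 lists, in red where higher past both thresholds, in blue where lower and in grey otherwise. All 6 receptors of B and myeloid cells lie to the right, 7 of the 15 transcription factors are blue, and the T- and NK-cell receptors run from Ctla4 (-2.97) to Klrg1 (4.27).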

How the data were processed

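RNA of 2 WT and 2 Mek1/2-tKO cultures was sequenced as read pairs from stranded mRNA libraries. The authors trimmed reads with Trimmomatic 0.36, mapped them to GRCm38 (the mapper is written STRA), counted them per gene with featureCounts of Subread 1.5.1 and deposited the raw counts without normalization. The annotation release, the strand setting and whether pairs or single reads were counted are not given in the sources used here. Among counts of 1 to 20, 65.4 to 68.2% were even, and a fit on halved counts was added after seeing the data. If both reads of a pair were counted, the printed counts and the limit for a count of 0 stand for fewer fragments than their number. A count of 0 allows up to 3 counts (0.154 to 0.194 CPM after TMM scaling), and this limit covers counting error only.

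Symbols were matched to 54723 of 54752 identifiers, and the spans of the 10 genes equal those of GENCODE M21. The genotypes were compared in R 4.3.3 by the two-sided quasi-likelihood test of edgeR 4.0.16 (robust fit, TMM, filterByExpr, Benjamini-Hochberg over 14330 genes). The common dispersion was 0.00842. Replicates differed by more than sampling noise (chi-square per gene 4.19 in WT, 10.9 in Mek1/2-tKO). Alternatives were DESeq2 1.42.0, other scalings, filters and thresholds, a replicate block and leaving out each library. Python 3.11.15 with pandas 2.3.3 and matplotlib 3.10.9 made the summaries and figures. The 10 genes and all lists were chosen with earlier results of these data known. Every gene of a list could be named, and profile neighbours were the 3 nearest to the most abundant called gene in each direction.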

Additional observations from a re-analysis of the deposited data

How the results depend on the processing

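Of the 10 genes, 3 were called higher and 3 lower with DESeq2, library size alone, size factors of DESeq2, no filter, an adjusted p under 0.01, halved counts (added after seeing the data) and each library left out. Scaling to Cd3d, Cd3e, Cd3g and Cd247 gave 4 higher (Cd200r1 gained, log2 fold change 1.30, edgeR adjusted p = 0.05 after rounding) and 2 lower (Btla lost), and at least 10 counts in every library gave 4 higher. A fold change of at least 2 left 2 higher and 2 lower (Cd96 and Btla lost), and no fold threshold gave 4 lower (Tigit gained). Lair1 changed sign, to -0.014 with library size alone, and ranged from -0.20 (without Mek1/2-tKO replicate 2) through -0.18 (without WT replicate 1) to 0.35 as each library was left out, and the cause was not tested.

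Over all genes, 2768 were higher and 2355 lower. Scaling to the Cd3 genes gave 3810 higher and 1461 lower, so that 72.3% in place of 54.0% of the calls were higher, since it moved the median log2 fold change of all genes by 0.205. Library size alone gave 2388 higher and 2848 lower (45.6% higher). A fold change of at least 2 gave 1725 higher and 1040 lower, no fold threshold 3983 higher and 3903 lower, and leaving out each library 2338 to 2791 higher and 2119 to 2627 lower. With 1 library left in a genotype, it is assumed to vary like the other genotype.

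Same-numbered libraries deviated from their group means with a correlation of -0.0235 across genes, so no shared deviation was seen. The labels do not say whether same-numbered libraries were prepared together, and this value cannot decide it. A replicate block gave 2652 higher and 2300 lower genes, and 3 and 3 of the 10 genes. Cd200r1, Lair1 and Havcr2 had at most 64 counts in a WT library, and their standard errors (0.52, 0.37 and 0.29) were the widest of the 10 genes.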
